A study of Mus musculus with 8 samples.

Results

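Lung and liver were compared gene by gene with 4 bulk libraries of polyadenylated RNA, 2 from lung (lung 1 and lung 2) and 2 from liver (liver 1 and liver 2), of the 8 libraries in the study, which sampled kidney and small intestine as well. Every library came from the whole organ of mice aged 6 to 10 weeks, of the strain C57BL/6 by the labels and C57BL/6J by the study's methods, which describe them as male, with no genetic change and no treatment named for either organ. The members were the 14976 genes, of 52195 in the file, with an FPKM, the number of read fragments scaled by transcript length and library depth, of 1 or more in at least 2 of these 4 libraries. Of the 6 pairs of tissues that can be formed, lung with liver had the lowest mean Pearson correlation of log2(FPKM + 1), at 0.535 over 16328 genes, and liver with small intestine was next at 0.575, both given as descriptions because the genes of a library are not independent. By the study's methods the 2 libraries of an organ came from separate mice and all 4 tissues were taken from each mouse, but the labels do not tie a library's number to a mouse. In bulk tissue, fewer cells of a type and less RNA per cell cannot be told apart.

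The 2 organs do very different work. The liver consists mostly of hepatocytes, which secrete the proteins of blood plasma, turn nitrogen into urea, release glucose, make bile acids and detoxify drugs, beside smaller numbers of sinusoidal endothelial cells, Kupffer cells, stellate cells and bile duct cells. The lung spreads an enormous, thin surface for gas exchange, on which flat alveolar type 1 cells lie against capillaries, type 2 cells secrete surfactant, club and ciliated cells line the airways, and elastic fibres let the tissue recoil. It is also full of immune cells and blood. Both labels held against the defining markers of these cells. The hepatocyte markers Alb, Apoa2, Apoc3, Fgb, Cps1, Cyp2e1, Hnf4a and Serpina1c were all higher in both liver libraries than in both lung libraries, and the 4 surfactant protein genes measured the other way.

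Levels below are rescaled FPKM, in which each library was divided by the median of its ratios to the geometric mean of the 4 libraries, and differences are lung minus liver on log2(rescaled FPKM + 1), so that a negative difference means a higher level in liver. Calls needed both an absolute log2 difference over 1 and a p under 0.05 from limma after Benjamini-Hochberg adjustment. This scale understates the difference of genes with low levels. Where a call is said to be lost without 1 library, the organ left with a single library was assumed to vary like the other organ, and the log2 difference in that fit is given beside its adjusted p.

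The largest differences toward liver were those of secreted plasma proteins. Alb, which encodes serum albumin and lies on chromosome 5 from 90460897 to 90476602 (GRCm38), was at 39.8 and 21.5 in the lung libraries and 64144 and 47514 in the liver libraries, a log2 difference of -10.83 (limma, adjusted p = 4.85e-05, standard error 0.36). The other genes among the 12 largest were Mup3, Mup20, Mup7, Mup15 and Mup-ps19 of the major urinary protein cluster, Serpina3k, Serpina1a, Serpina1c and Serpina1d of the serpin protease inhibitors, Ahsg, which encodes fetuin-A, and Gc, which encodes the vitamin D binding protein. Gc, on chromosome 5 from 89417522 to 89457898 (GRCm38), was at 4.16 and 2.55 in lung and 6435 and 5867 in liver, a log2 difference of -10.49. Ahsg, on chromosome 16 from 22891277 to 22899449 (GRCm38), was at 6.45 and 3.73 in lung and 10441 and 7268 in liver. The Mup and Serpina1 genes are near-identical copies that share reads, so that their single values are uncertain.

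Toward lung, the largest differences were those of airway and alveolar secretions. Scgb1a1, the secretoglobin of club cells, on chromosome 19 from 9083636 to 9087958 (GRCm38), was at 25480.0 and 32951 in lung and 106 and 96.8 in liver, a log2 difference of 8.15 (limma, adjusted p = 3.33e-05, standard error 0.22). Sftpc, which encodes surfactant protein C, on chromosome 14 from 70520949 to 70524081 (GRCm38), was at 7754 and 6381 in lung and 24.4 and 26.5 in liver, a log2 difference of 8.06. The list went on with Sftpb and Sftpa1 of the surfactant, the secretoglobins Scgb3a1 and Scgb3a2, the carbonyl reductase Cbr2, Ager, the receptor for advanced glycation end products on type 1 cells, the chemokine Cxcl15, Sec14l3, the matrix protein Mgp and Chil3, a chitinase-like protein of alveolar macrophages. Ager, on chromosome 17 from 34597862 to 34600936 (GRCm38), was at 429 and 512 in lung and 2.83 and 1.61 in liver. The libraries of the organs did not overlap in any of these genes, as the plot of every library shows, which was part of the rule that chose them.

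**Figure D1:**
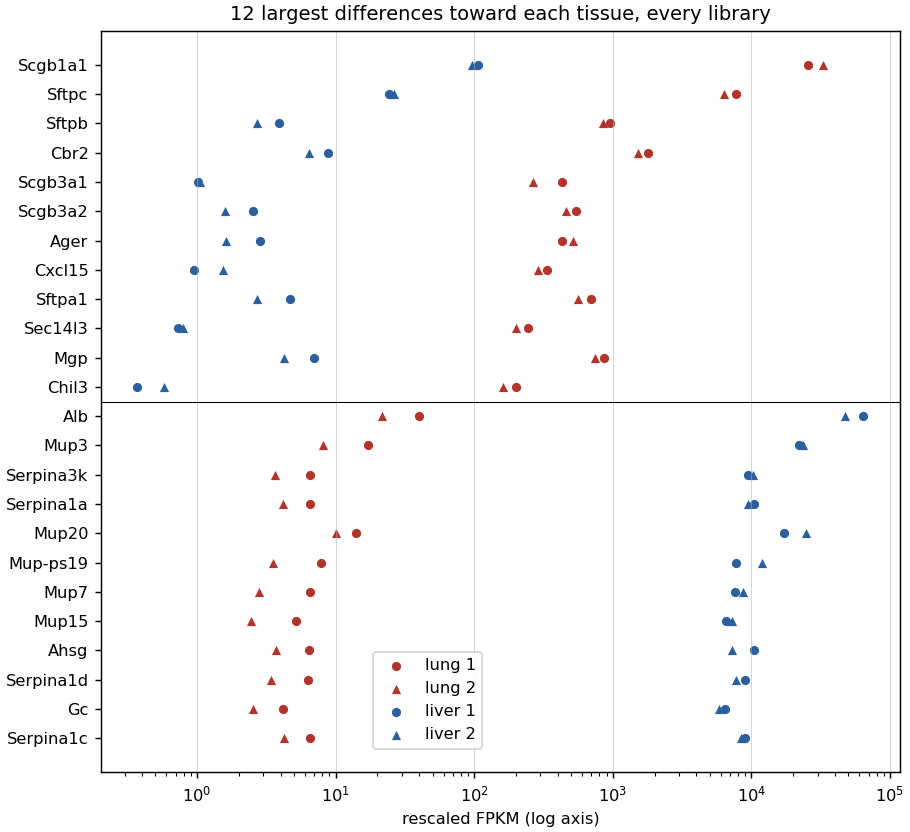
Rescaled FPKM on a log axis for the 12 genes with the largest log2 difference toward lung (upper block) and toward liver (lower block). Red marks are the 2 lung libraries and blue marks the 2 liver libraries, with circles for number 1 and triangles for number 2; in the lower block lung 1 lies above lung 2 in 12 of 12 genes.

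The low side of these differences has a limit of its own. For the 12 liver genes, the deposited FPKM in lung 1 was between 0.196% and 0.240% of the liver mean (median 0.221%), and in lung 2 between 0.107% and 0.152% (median 0.126%). Lung 1 was above lung 2 in 12 of 12, with a ratio between 1.33 and 2.25. These genes were chosen for the size of their difference, so a narrow range of shares in each lung library follows in part from the rule. For the 12 lung genes, the liver libraries held between 0.0629% and 0.267% of the lung mean (median 0.121% in each liver library). In the same deposited values, the 12 liver genes had medians of 0.0414% and 0.143% of the liver mean in the kidney libraries and of 0.0283% and 0.0389% in those of small intestine. Whether these low values are transcripts of the organ or reads assigned to the wrong library was not tested, and the size of the largest differences depends on them.

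The promoters of 4 of these genes are shown because the best known regulators of hepatocytes and of lung epithelium, HNF1, C/EBP and NKX2-1, have matches in them. Each is the RefSeq window of GRCm38.p6 from 250 bases before to 50 bases after the annotated start, written 5′ to 3′ on the strand of the gene, with motif matches in capitals. Alb lies on chr5:90460620-90460919 (plus strand) and Gc on chr5:89457849-89458148 (minus strand), and Sftpb lies on chr6:72304360-72304659 and Sftpa1 on chr14:41131538-41131837, both on the plus strand. Alb had 1 C/EBP match on the opposite strand, starting at position -94 from the start site, and Gc had 1 HNF1 match at -52. Sftpb had 2 NKX2-1 matches, at -100 and -15, and Sftpa1 had 1 at -166, with an ETS match on the opposite strand at -96 and a TATA box at -30. These 4 were picked for their matches, and not every gene had a window. In the windows found, HNF1 matched only Gc, C/EBP also Serpina1a, Ahsg and Serpina1d, and NKX2-1 also Scgb3a1 and Cxcl15. Those of Cbr2, Ager, Sec14l3, Mup3, Mup7, Mup15 and Serpina1c had no match to any motif searched, and that of Chil3 only a TATA box.
Alb: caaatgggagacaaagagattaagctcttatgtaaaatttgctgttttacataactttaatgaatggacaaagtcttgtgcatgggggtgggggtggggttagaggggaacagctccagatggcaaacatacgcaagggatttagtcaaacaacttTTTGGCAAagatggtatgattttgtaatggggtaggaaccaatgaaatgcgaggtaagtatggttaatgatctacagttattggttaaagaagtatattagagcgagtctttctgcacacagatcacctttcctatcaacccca
Gc: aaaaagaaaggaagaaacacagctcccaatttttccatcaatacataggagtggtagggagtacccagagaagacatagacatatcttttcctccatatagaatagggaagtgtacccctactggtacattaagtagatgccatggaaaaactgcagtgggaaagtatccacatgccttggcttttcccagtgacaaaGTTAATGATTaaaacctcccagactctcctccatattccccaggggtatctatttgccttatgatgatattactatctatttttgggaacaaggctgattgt
Sftpb: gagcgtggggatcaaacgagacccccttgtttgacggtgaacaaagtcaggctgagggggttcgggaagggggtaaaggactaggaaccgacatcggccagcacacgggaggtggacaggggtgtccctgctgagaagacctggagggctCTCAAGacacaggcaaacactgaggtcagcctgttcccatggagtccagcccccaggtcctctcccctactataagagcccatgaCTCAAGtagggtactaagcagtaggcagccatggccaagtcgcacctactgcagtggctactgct
Sftpa1: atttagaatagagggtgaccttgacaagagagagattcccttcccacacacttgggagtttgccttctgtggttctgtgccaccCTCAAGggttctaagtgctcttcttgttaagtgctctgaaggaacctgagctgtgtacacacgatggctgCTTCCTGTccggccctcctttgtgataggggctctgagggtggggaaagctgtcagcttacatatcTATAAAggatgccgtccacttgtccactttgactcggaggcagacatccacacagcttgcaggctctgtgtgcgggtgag

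Motifs were searched on both strands of the windows of protein-coding genes: a motif of 10 letters for HNF1, whose match is in capitals in Gc, CAAAGTCCA for HNF4, TTGCNNAA for C/EBP, TGTTTAC for FOXA, CTCAAG for NKX2-1, TATAAA for the TATA box and ACAGGAAG for ETS factors, the last 2 chosen after the first results. No overlap between motifs was removed. Of the genes called higher in liver 81.8% had a window, and of those over 5 toward liver 80.3%, against 81.5% of the genes tested. HNF1 matched 1.21% of the windows of genes higher in liver, 4.0% of those over 5 (13 of 325 windows) and 0.299% of all tested. HNF4 matched 1.21%, 4.0% and 0.558%, C/EBP 11%, 21.2% and 9.07%, and FOXA 3.79%, 5.85% and 2.64%. The promoters of the genes over 5 toward liver were also poor in CpG: the ratio of observed to expected CpG was under 0.5 in 85.9% of their windows, in 35.4% for all genes called higher in liver, in 28.2% for all tested and in 20.1% for genes not called. TATAAA matched 10.4% of the windows of genes higher in liver, 20% of those over 5 and 7.96% of all tested. The median GC content was 49.7% in the windows of genes over 5 toward liver, 58% for all higher in liver and 60% for all tested. HNF1, FOXA and TATAAA motifs are rich in A and T, and the part of base composition in their shares was not tested. These shares are descriptions. For lung, a comparison was void, since only 78.1% of the genes called and 70.6% of those over 5 had a window. In the windows found, NKX2-1 matched 15.3% for genes called higher in lung and 14.9% for those over 5, against 14.4% of all tested, ETS 3.08% and 2.13% against 3.30%, and TATAAA 8.99% and 27.7% against 7.96%. Windows with a CpG ratio under 0.5 made up 43.7% for genes called higher in lung and 53.2% for those over 5.

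Transcripts were spread over more genes in lung than in liver. A deposited FPKM, before rescaling, of 1 or more was reached by 14828 genes in lung 1 and 14816 in lung 2, and by 9400 in liver 1 and 9847 in liver 2. The mean was thus 14822 ± 8.49 (SD, n = 2) in lung and 9624 ± 316 (SD, n = 2) in liver, a ratio of 1.54, and the tissues did not overlap. The size of this gap rests on the scale: at a rescaled FPKM of 1 or more there were 12880.0 and 12825 genes in the lung libraries and 11326 and 11423 in the liver libraries, a ratio of 1.13. With 2 libraries against 2, an exact permutation test cannot give a two-sided p below 0.333, which is the value here and for each measure of diversity below. After thinning to the 9399947 reads of the shallowest library, by calculation, 23314 and 23224 genes would be seen in the lung libraries and 18151 and 18748 in the liver libraries. The 4 libraries had 9399947 to 12861363 reads on genes, recovered from the spacing of low FPKM values, and liver 2, with 10571918, was deeper than lung 1, with 10098511, while showing fewer genes.

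The effective number of genes, the exponential of the Shannon entropy of each gene's share of the summed FPKM, says how many equally abundant genes would give the same evenness. It was 714 and 727 in the lung libraries and 200.2 and 218 in the liver libraries, with means of 721 ± 8.95 and 209 ± 12.8 (SD, n = 2 each), a ratio of 3.44. In lung the 46 and 52 highest genes made up 50% of the summed FPKM, and in liver the 15 and 17 highest did. To reach 90%, the lung libraries needed 4292 and 4477 genes, and the liver libraries 783 and 863. Mitochondrial genes and their 7 pseudogenes on chromosome 1, which share reads with them, took 25.4% and 22.8% of the FPKM in lung and 43.6% and 40.5% in liver. Without these, the effective number was 1303 and 1196 in lung and 513 and 499.9 in liver, a ratio of 2.47. The order of the tissues turned, however, in a measure that weighs the highest genes most. The inverse Simpson number was 62.1 and 49.4 in lung against 41.0 and 44.9 in liver over all genes, but 56.2 and 39.5 against 63.9 and 71.2 once mitochondrial genes and pseudogenes were left out. Scgb1a1 alone then held 11.3% and 14.9% of the lung libraries, as the left ends of the curves show.

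**Figure D2:**
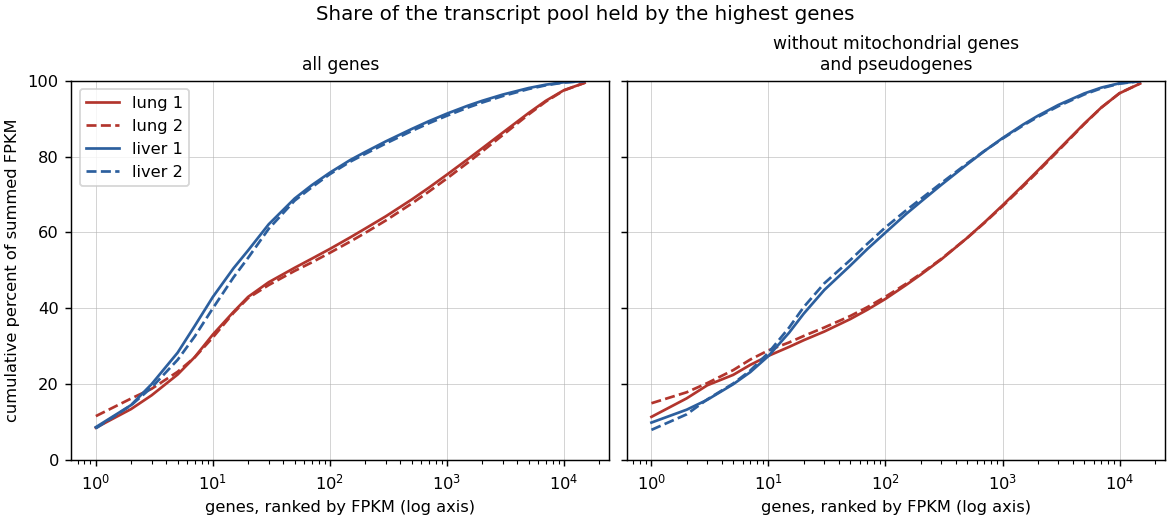
Cumulative percent of the summed FPKM (vertical axis) held by the highest genes, against their rank on a log axis, for the 2 lung libraries (red) and the 2 liver libraries (blue), solid for number 1 and dashed for number 2. Over all genes (left) both liver curves reach 50% by rank 17 and both lung curves by rank 52; without mitochondrial genes and pseudogenes (right) lung starts higher at the first genes and the curves lie close together at rank 10, beyond which liver runs above lung.

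At a deposited FPKM of 1 fewer genes of each kind were found in liver. Of the protein-coding genes, 12362 and 12315 reached a deposited FPKM of 1 in the lung libraries and 8026 and 8362 in the liver libraries. For long non-coding RNA genes the numbers were 645 and 636 against 271 and 292, and for pseudogenes 1279 and 1321 against 901 and 977. A gene present in both libraries of an organ at a rescaled FPKM of 1 or more, but below the 3 reads taken as the limit of detection in each library of the other, was found 851 times for lung (526 protein-coding) and 249 times for liver (69 protein-coding), and 9149 genes reached 1 in all 4 libraries. The limit of 3 reads stands for a higher rescaled FPKM in liver than in lung, which favours the lung count. The scaling factors were 0.5401 and 0.6182 for liver and 1.7333 and 1.8132 for lung. Highest among the 526 protein-coding genes for lung were Myl7 and Actc1 of heart muscle, and Lamp3 of type 2 cells and dendritic cells. Highest among the 69 for liver was Serpina6, the corticosteroid carrier of plasma, at 156 and 92.8 in liver.

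Across all genes tested, 3299 (22.0%) were called higher in lung and 2842 (19.0%) higher in liver, 6141 (41.0%) in all, by limma with Benjamini-Hochberg adjustment. An adjusted p under 0.05 without regard to size was reached by 10245 (68.4%, limma), of which 4104 had a log2 difference within 1, and 4731 had none. The libraries of the tissues did not overlap in 12892 genes (86.1%), which is the background for every count of that kind. More genes were called toward lung, and more large differences lay toward liver: 77 genes exceeded 5 in lung and 359 in liver, and 2 exceeded 8 in lung, Scgb1a1 and Sftpc, against 101 in liver. The excess of large differences toward liver moved with the settings. A pseudocount of 0.1 in the same scaling gave 403 genes over 5 toward lung and 599 toward liver. With a pseudocount of 1 the genes over 5 were 100 toward lung and 296 toward liver after quantile normalization, 226 and 239 with the FPKM as deposited, and 269 and 225 after rescaling to the same sum, while limma-voom on recovered reads, which changes the input and the fit as well, gave 679 and 682. More genes were called toward lung than toward liver in each setting tried, but by a share that moved with the scaling. Of the genes called, 53.7% were higher in lung after median-of-ratios scaling and 54.8% after quantile normalization, but 88.5% with the FPKM as deposited (9017 toward lung and 1177 toward liver), 90.5% after rescaling to the same sum and 87.1% after rescaling to the same sum without mitochondrial genes and pseudogenes. The middle of all genes lay at a log2 difference of 0.12 in the main scaling and 1.22, 1.40 and 1.15 in the latter 3, so that the changes below are relative to the middle of all genes. With the deposited FPKM, 4476 of the 6141 calls were kept, 651 had the opposite sign and 0 were called the other way (limma), while all 14976 genes gave 10194 calls.

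**Figure D3:**
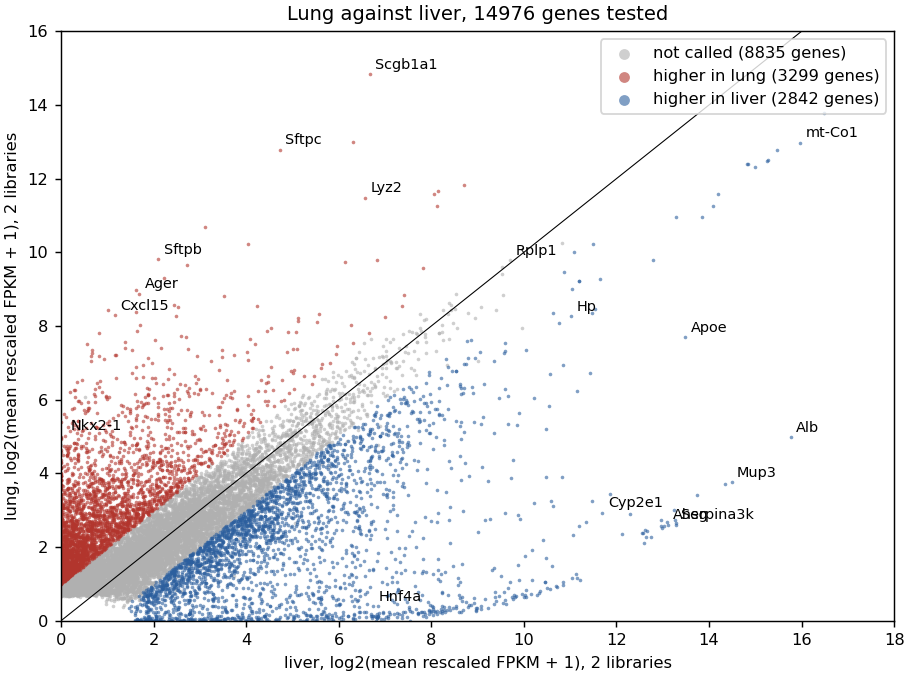
Mean level of each of the 14976 genes tested in liver (horizontal) and lung (vertical), as log2(mean rescaled FPKM + 1) over 2 libraries each, with the line of equal levels. The 3299 genes called higher in lung (red) lie mostly at low to middle levels, and the 2842 called higher in liver (blue) stretch to levels above 15 on this scale, where Alb stands.

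Plasma carriers and inhibitors were higher in liver in every member tested, 26 of 26, with a median log2 difference of -7.56 against 0.12 over all genes. Together they took 16.8% ± 1.63 (SD, n = 2) of the liver FPKM without mitochondrial genes and 0.181% ± 0.0209 of the lung FPKM. Ambp, the precursor of alpha-1-microglobulin, was at 1.51 and 0.945 in lung and 2369 and 1850.5 in liver. For Rbp4, the carrier of retinol, the levels were 10.2 and 6.88 and 2996 and 2673. Orm1, an acute phase glycoprotein, stood at 2.52 and 1.20 in lung and 1079.5 and 802 in liver, a log2 difference of -8.39. The smallest difference of the list was that of haptoglobin, Hp, which binds free haemoglobin: 321 and 290.2 in lung and 2189.7 and 1939.5 in liver, a log2 difference of -2.75, whose call was lost after rescaling to the same sum (difference -0.87) and after quantile normalization (difference -0.31), so that 25 of 26 were called in each. Ceruloplasmin, Cp, the copper carrier, was likewise present in lung, at 22.5 and 16.4, against 218 and 176 in liver. Hp and Cp were thus plasma protein genes with levels above 10 in both organs, but not the only ones, since Alb was at 39.8 and 21.5 in lung. The 48 genes and pseudogenes of the major urinary proteins, a family that was summed after its values were seen because its members share reads, took 17.2% ± 3.05 (SD, n = 2) of the same liver FPKM and 0.0288% ± 0.0138 of the lung FPKM.

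The genes of coagulation were divided between the organs. Of 30 genes tested, 19 were called higher in liver and 8 higher in lung. All 12 hepatic clotting factors were higher in liver. Fgb, the beta chain of fibrinogen, was at 1.5 and 0.396 in lung and 1919 and 1749.5 in liver, and F2, prothrombin, at 0.347 and 0.174 and 579 and 422. Among hepatic regulators, 7 of 8 were higher in liver, the exception being Pros1, protein S, at 13.9 and 12.8 in lung and 18 and 14.1 in liver (log2 difference -0.24, adjusted p = 0.224, limma). Of 10 components of vessel wall and blood cells, 8 were higher in lung and 0 in liver. Thbd, the endothelial receptor thrombomodulin, was at 124 and 111 in lung and 3.04 and 1.14 in liver, a log2 difference of 5.33. Von Willebrand factor, Vwf, was at 12.1 and 15.7 and 0.415 and 0.371, and tissue factor, F3, at 10.4 and 8.83 and 1.76 and 1.49.

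Complement was mixed as well, with 24 of 35 genes called higher in liver and 6 in lung, a split that became 18 and 7 with the deposited FPKM and 16 and 10 after rescaling to the same sum. Some components of the membrane attack complex were far apart: C9 was at 0.509 and 0.260 in lung and 436 and 530.2 in liver, and C8a at 0.130 and 0.0610 and 221 and 227. Others were closer, with ratios of mean rescaled FPKM, liver over lung, of 12.2 for C6 and 3.02 for Hc, which encodes C5. C7, of the same complex, went the other way, at 22.7 and 19.2 in lung and 0.604 and 0.410 in liver, a log2 difference of 3.86. Cfd, the protease factor D, was also higher in lung, at 59.5 and 32.5 against 2.85 and 0.340, with lung 1 well above lung 2, and its call was lost without lung 1 (difference 3.78, adjusted p = 0.0685) or lung 2 (difference 4.63, adjusted p = 0.0514, limma). C3, the central component, was at 66.7 and 63.3 in lung and 1281 and 1082 in liver, a log2 difference of -4.16. The 3 chains of C1q, made by macrophages, were not called: C1qa was at 35.6 and 24.9 in lung and 44.9 and 41.9 in liver. Of 5 receptors, C5ar1, Cr2 and Itgax were higher in lung and Vsig4, of Kupffer cells, higher in liver.

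Of 25 genes of lipoproteins, 21 were higher in liver and 4 in lung. All 12 apolipoproteins fell on the liver side, from Apoa2, of high density lipoprotein, at 12.1 and 7.11 in lung and 14129 and 13276 in liver, to Apoc2, listed at 0 in both lung libraries and at 5.22 and 3.08 in liver. Apoe was the apolipoprotein with the highest level in lung, at 221 and 192 against 12703 and 10215 in liver, a log2 difference of -5.78. The genes higher in lung were Lpl, lipoprotein lipase, at 11.8 and 8.49 in lung and 2.70 and 2.12 in liver, its capillary anchor Gpihbp1 at 39.6 and 37.7 and 12.6 and 9.26, the endothelial lipase Lipg, whose call was lost without lung 1 (difference 1.30, adjusted p = 0.2) or lung 2 (difference 0.96, adjusted p = 0.293, limma) or liver 2 (difference 0.63, adjusted p = 0.0843), and Pltp, the phospholipid transfer protein, at 72.6 and 77.6 and 9.15 and 4.77.

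Nitrogen metabolism was on the liver side, with 42 of 42 genes of the urea cycle and amino acid breakdown called (median log2 difference -6.46). Cps1, which starts the urea cycle, was at 0.659 and 0.439 in lung and 928 and 784 in liver, a log2 difference of -9.11. Tat, which opens tyrosine breakdown, was at 1.43 and 0.701 in lung and 1658 and 1134 in liver. Bhmt, a methyltransferase of homocysteine, was at 0.205 and 0.177 in lung and 541 and 451 in liver. Cdo1, which oxidizes cysteine, was the member with the highest level in lung, at 45.7 and 52.8, and stood at 934 and 968 in liver, a log2 difference of -4.25. Only Amt and Mccc1 had differences smaller than that of Ivd, at -2.30, and the calls of these 3 were lost with the deposited FPKM (differences -0.69, -0.54 and -0.76), so that 39 of 42 were called.

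All 20 genes of glucose output, fructose and glycogen were higher in liver, with a median log2 difference of -4.90. G6pc, the phosphatase that releases free glucose, was at 0.857 and 0.405 in lung and 309.8 and 465 in liver, and Pck1, which opens gluconeogenesis, at 5.22 and 1.90 and 1612 and 1116. Fatty acid oxidation and ketone bodies gave 28 of 30 genes higher in liver and 2 in lung, with a median of -3.45. The exceptions were Oxct1 and Cd36. Oxct1, which lets tissues burn ketone bodies, was at 20.1 and 14.7 in lung and 3.06 and 5.38 in liver, a call that was lost without lung 1 (difference 1.61, adjusted p = 0.0815) or lung 2 (difference 2.04, adjusted p = 0.0583, limma). Cd36, a fatty acid receptor of capillaries, was at 200.04 and 198 and 20.5 and 11.2, a log2 difference of 3.63 (adjusted p = 0.000455, limma).

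Bile acid synthesis and transport had 26 of 26 genes tested on the liver side, at a median of -5.35. Slc10a1, which takes bile acids up from blood, was at 0.322 and 0.262 in lung and 331 and 332 in liver, and Abcb11, which exports them into bile, at 0.0804 and 0.0431 and 124 and 101. Cyp7a1, the rate-limiting enzyme of the classic pathway, was listed at 0 in both lung libraries and at 5.52 and 12.7 in the liver libraries, a wide spread and a low level for this list, and its call was lost without lung 1 (difference -3.01, adjusted p = 0.0654) or lung 2 (difference -2.99, adjusted p = 0.0677, limma). Cyp27a1, of the alternative pathway, was at 12.8 and 13.6 in lung and 457 and 336 in liver. Hsd3b7 was listed at 0 in all 4 libraries and was not tested. The secreted hormones and hormone receptors of the liver were all higher there, 23 of 23. Hamp, the iron regulator hepcidin, was at 2.88 and 2.71 in lung and at 693 and 1631 in liver, so that liver 2 stood well above liver 1. Igf1, the growth factor, was at 1.52 and 1.21 in lung and 77.9 and 75 in liver, and Gcgr, the glucagon receptor, at 0.316 and 0.169 and 187 and 179. Il6ra, the interleukin 6 receptor, had the smallest difference, -1.03 (adjusted p = 0.0357, limma), and with the deposited FPKM its difference was 0.22 toward lung. The call of Il6ra was also lost without lung 1 (difference -1.005, adjusted p = 0.233) or lung 2 (difference -0.92, adjusted p = 0.26, limma) or liver 1 (difference -0.65, adjusted p = 0.0231).

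Of 46 genes of drug metabolism, 33 were higher in liver, 7 in lung and 6 were not called, and after rescaling to the same sum 28 were higher in liver and 12 in lung. Cyp3a11, a main drug oxidase, was at 2.09 and 0.741 in lung and 2336 and 2158 in liver, and Cyp2e1, which oxidizes ethanol, at 8.54 and 4.77 and 3959 and 2682. On the lung side stood 3 cytochromes P450. Cyp4b1 was at 141 and 172 in lung and 16.7 and 13.5 in liver, Cyp2s1 at 15.4 and 13.8 and 0.327 and 0.0317, and Cyp2b10 at 78.3 and 69.2 and 8.23 and 2.89, with a call that was lost without lung 1 (difference 3.52, adjusted p = 0.0605) or lung 2 (difference 3.71, adjusted p = 0.057, limma). The flavin monooxygenase Fmo2, at 88.4 and 83.0 in lung and 4.14 and 3.07 in liver, the aldehyde dehydrogenase Aldh3b1 and Cbr2 were also among the 7. Cyp2f2, an enzyme of club cells that activates naphthalene, was abundant in both organs, at 439 and 470.0 in lung and 848 and 655 in liver, and was not called (log2 difference -0.71, adjusted p = 0.0257, limma), and its difference was 0.90 with the deposited FPKM. Por, the reductase that serves all of these P450 enzymes, was at 36.6 and 33.2 in lung and 122 and 47.0 in liver, where the 2 libraries were apart. None of the 14 genes of conjugation was higher in lung. Gstp1 was at 98.3 and 111 in lung and 2518 and 2979 in liver, and shares sequence with a close copy.

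**Figure D4:**
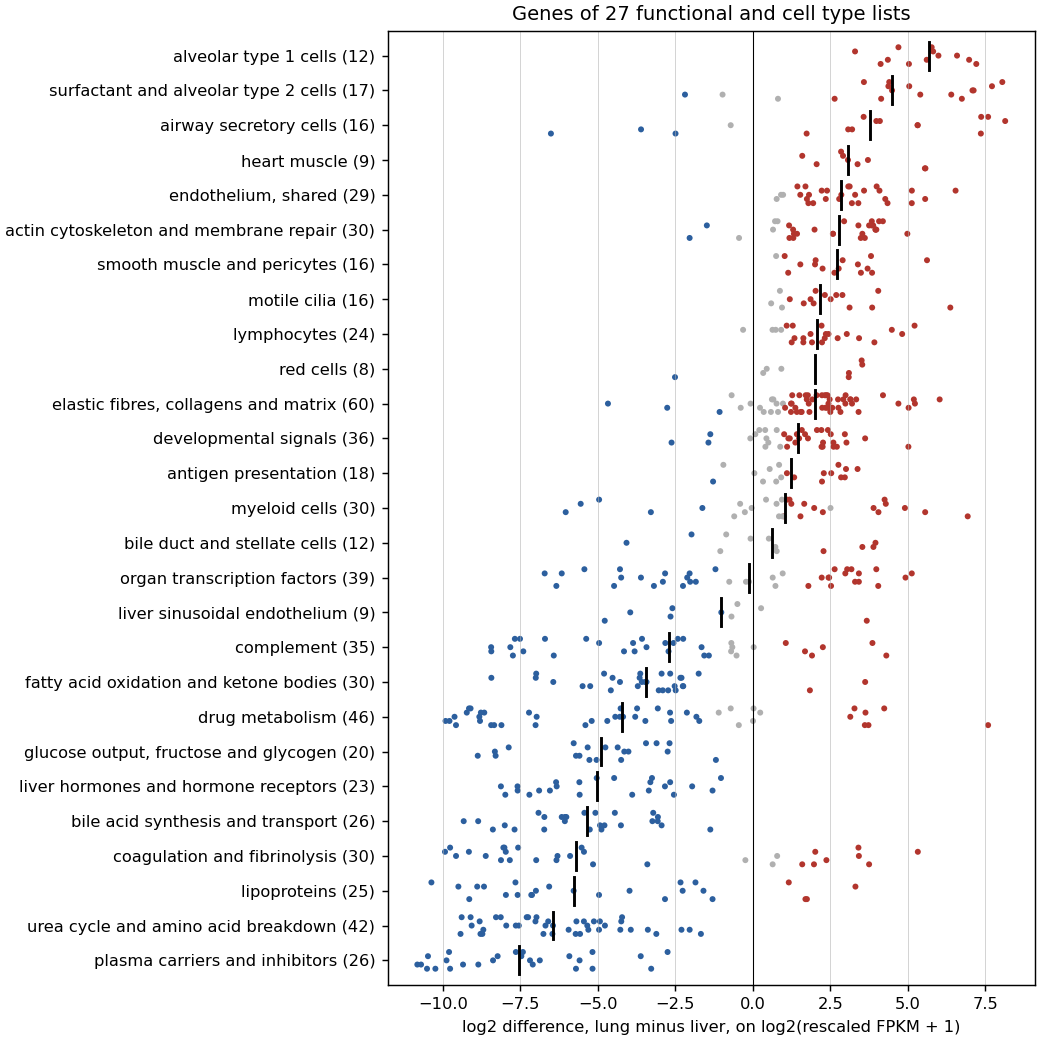
Log2 difference, lung minus liver, of every gene tested in 27 lists of functions and cell types, with 1 point per gene, red where called higher in lung, blue where called higher in liver and grey where not called; black bars are list medians and numbers in brackets the genes tested. Medians run from 5.69 for alveolar type 1 cells to -7.56 for plasma carriers and inhibitors.

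Surfactant and alveolar type 2 cells gave 14 of 17 genes higher in lung, 1 in liver and 2 not called, with a median log2 difference of 4.50. The 4 surfactant protein genes were all higher in lung. Sftpb was at 955 and 846 in lung and 3.90 and 2.71 in liver, and Sftpd, a collectin of innate defence, at 389.8 and 277 and 2.34 and 1.82. Slc34a2, the phosphate transporter of type 2 cells, was at 139.8 and 122 in lung and 0.322 and 0.813 in liver. Abca3, the lipid pump of lamellar bodies, was not called, at 7.16 and 7.47 in lung and 3.74 and 3.72 in liver. Scd1, a fatty acid desaturase used in both organs, was higher in liver, at 918 and 390.4 against 156 and 109 in lung, but its call was lost with the deposited FPKM and without lung 1 (difference -2.42, adjusted p = 0.11) or lung 2 (difference -1.89, adjusted p = 0.16, limma). All 12 genes of alveolar type 1 cells were higher in lung, at a median of 5.69. Aqp5, a water channel, was at 77.8 and 75 in lung and 0.242 and 0.188 in liver, a log2 difference of 5.99 (standard error 0.11), and Cldn18, a tight junction protein, at 64.7 and 68.1 and 0.181 and 0.281. Hopx, a homeodomain protein, had the highest level in liver of this list, at 15.3 and 19.4, against 158 and 202 in lung.

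Of 16 genes of airway secretory cells, 12 were higher in lung, 3 in liver and 1 was not called, and their share of FPKM without mitochondrial genes was 14.6% ± 2.36 (SD, n = 2) in lung and 0.266% ± 0.0217 in liver, most of it Scgb1a1. Of the 11 secreted products 10 were higher in lung. Bpifa1, an antimicrobial protein of the upper airways, was at 84.6 and 33.1 in lung and 0.392 and 0.304 in liver, with lung 1 above lung 2 as in Bpifb1. Pigr, which carries immunoglobulin A into mucus and bile, was higher in liver, at 435 and 404 against 40.9 and 27.3. The other 2 genes of this list on the liver side were the enzymes Ces1f and Aldh1a7, the latter not called with the deposited FPKM (difference -0.91). Motile cilia were on the lung side with 13 of 16 genes tested, 0 toward liver. Foxj1, which switches on the programme of ciliated cells, was at 22.1 and 23.9 in lung and 0.308 and 0.597 in liver, and Tppp3, a tubulin-binding protein, at 143 and 148 and 0.765 and 0.763. The dynein Dnah5 was at 0.937 and 0.925 in lung and 0 and 0.0100 in liver, below the size threshold at 0.94, and 7 of the 23 listed genes did not pass the filter on low values.

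Matrix genes numbered 60, of which 46 were higher in lung, 3 in liver and 11 were not called (median 1.99), and after rescaling to the same sum 55 and 1. Among 14 elastic fibre genes 13 were higher in lung. Eln, elastin itself, was at 31.5 and 27.7 in lung and 0.699 and 0.619 in liver, a log2 difference of 4.20, and Mfap4, a microfibril protein, at 160.2 and 179 and 1.58 and 1.63, a difference of 6.03. Of 20 collagens, 14 were higher in lung, 2 in liver and 4 were not called. Col4a3 and Col4a4, chains of the basement membrane shared by alveolus and capillary, were at 5.09 and 4.70 and 7.24 and 7.88 in lung, and at 0.243 and 0.110 and 0.229 and 0.177 in liver. Col1a1, of fibrillar collagen, was at 19.7 and 16 in lung and 1.39 and 3.72 in liver, and its call was lost without lung 1 (difference 2.29, adjusted p = 0.0829) or lung 2 (difference 2.58, adjusted p = 0.0702, limma). Col18a1, from which endostatin is cut, was higher in liver, at 103 and 88.5 against 2.74 and 2.79 in lung, a log2 difference of -4.68. Fn1, which encodes fibronectin, of which hepatocytes make the plasma form, was at 11.2 and 10.2 in lung and 82.4 and 74.4 in liver, a call lost after rescaling to the same sum (difference -0.96). Npnt, an integrin ligand of the alveolar basement membrane, stood at 48.5 and 55.4 in lung and 0.402 and 0.405 in liver. Dcn and Lum, the small proteoglycans decorin and lumican, were not called, with differences of -0.07 and 0.23.

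Endothelial genes shared by organs were higher in lung in 26 of 29 cases and in liver in 0 (median 2.86). Pecam1, an adhesion molecule between endothelial cells, was at 57.2 and 59.9 in lung and 5.0 and 3.07 in liver, and Cdh5, of their junctions, at 72.8 and 82.4 and 7.93 and 6.08. Tmem100, of the lung capillary group, was at 149 and 141 in lung and 0.800 and 0.355 in liver. Car4, the carbonic anhydrase on the capillary surface, was at 77.8 and 76.3 and 0.514 and 0.797. The sinusoidal endothelium of the liver gave 5 of 9 genes higher in liver, 1 in lung and 3 not called. Stab2, a scavenger receptor, was at 0.121 and 0.137 in lung and 5.51 and 6.16 in liver, and Clec4g at 0.264 and 0.162 and 38.7 and 26.9. Lyve1, which lymphatic vessels of other organs also carry, was higher in lung, at 73.2 and 62.6 against 5.05 and 3.76. With the FPKM as deposited or rescaled to the same sum, 4 of the 9 were higher in liver and the median of the list was on the lung side.

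Contractile and pericyte genes were on the lung side in 15 of 16 cases. Acta2, smooth muscle actin, was at 86.1 and 83.9 in lung and 4.99 and 4.93 in liver, and Cox4i2, an oxygen-regulated subunit of cytochrome oxidase known from pericytes, at 56.0 and 67.1 and 0 and 0.597. Transcripts of heart muscle were found in both lung libraries, with all 9 genes tested higher in lung. Myl7, the atrial light chain, was at 63.0 and 59.2 in lung and 0.342 and 0.266 in liver, and Myh6 at 7.60 and 7.23 in lung and 0 in both liver libraries. The share of this list in lung FPKM without mitochondrial genes was 0.0731%. Haemoglobin genes were also higher in lung, at 5.57% ± 0.915 (SD, n = 2) of that FPKM against 0.199% ± 0.00412 in liver, 4 of 4 called. The other red cell gene called, Alas2, which starts haem synthesis in red cells, was higher in liver, at 65.7 and 51.1 against 8.61 and 10.1, a call lost with the deposited FPKM (difference -0.97). These lists mark heart tissue and blood, and their part in the other differences was not tested.

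Lymphocyte genes were higher in lung in 20 of 24 cases and in liver in 0. All 9 B cell genes were, among them Cd79a, of the B cell receptor, at 38.5 and 59.1 in lung and 0.693 and 0.753 in liver. Of the 174 immunoglobulin genes tested, 159 were called higher in lung and 0 in liver (limma). All 394 in the file, summed after their values were seen, held 8.28% and 4.44% of the FPKM without mitochondrial genes in lung 1 and lung 2, and 0.0257% and 0.0284% in the liver libraries. Their single values are uncertain, since segments share reads. Igkc, the kappa constant region, was at 10977 and 5351 in lung and 78.2 and 77.5 in liver, so lung 1 stood above lung 2. Of 10 T cell genes 8 were higher in lung, with Cd4 at 3.37 and 3.24 in lung and 0.351 and 0.427 in liver.

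The resident macrophages of the organs showed as opposite groups. All 5 Kupffer cell genes tested were higher in liver. Clec4f, a lectin of these cells, was listed at 0 in both lung libraries and at 68.2 and 61.6 in liver, and Cd5l was at 0.435 and 0.283 in lung and 68.9 and 57.4 in liver. Of 8 genes of alveolar macrophages, 5 were higher in lung and 0 in liver. Among the 5 was Car4, which is also counted with the lung capillary genes above. Chil3 was at 199 and 161 in lung and 0.371 and 0.576 in liver, and Ear2, a ribonuclease, at 73.5 and 61.8 and 3.09 and 4.14. Pparg, the nuclear receptor of these cells, was not called, at 2.16 and 1.89 and 2.74 and 2.49. Of the genes shared by macrophages, Csf1r, the receptor for their growth factor, had a difference of -0.04 (adjusted p = 0.807, limma), at 13.1 and 14.9 in lung and 15.1 and 13.7 in liver. Lyz2, lysozyme, which type 2 cells also make, was at 3039.8 and 2665 in lung and 105 and 83.8 in liver. The neutrophil genes S100a8 and S100a9 were called higher in lung, but lung 2 stood far above lung 1, at 13.6 and 60.9 and 20.9 and 118, against 0 and 1.35 and 3.48 and 0.600 in liver, and both calls were lost without lung 2 (differences 3.10 and 2.96, adjusted p = 0.0656 and 0.0981, limma), as were that of S100a8 without liver 1 (difference 3.76, adjusted p = 0.0627) and that of S100a9 without liver 2 (difference 3.53, adjusted p = 0.0933). Retnlg, of the same cells, was at 1.07 and 14.7 in lung and 0 in both liver libraries and was not called (adjusted p = 0.0713, limma).

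In antigen presentation, all 8 class II genes were higher in lung. Cd74, the invariant chain, was at 962 and 809.5 in lung and 108 and 116 in liver, and Ciita, the switch of class II expression, at 5.42 and 4.91 and 0.115 and 0.417. Of 10 class I genes, 2 were higher in lung, 1 in liver and 7 were not called, where 22.0% and 19.0% of all genes were. H2-D1 was at 454 and 478 in lung and 405 and 339 in liver, and B2m, the light chain of class I, at 1221 and 1155 and 2977 and 2807, a difference of -1.28 that turned to 0.33 with the deposited FPKM and whose call was lost without lung 1 (difference -1.30, adjusted p = 0.0558) or lung 2 (difference -1.21, adjusted p = 0.055, limma). With the FPKM as deposited, or rescaled to the same sum with or without mitochondrial genes, 16 of the 18 genes of the list were called higher in lung in place of 10.

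The transcription factors known from each organ followed it. All 13 liver factors tested were higher in liver, and of 18 lung factors 15 were higher in lung, 1 in liver and 2 were not called. Hnf4a, a nuclear receptor that maintains hepatocytes, was at 0.441 and 0.193 in lung and 114 and 97.6 in liver, a log2 difference of -6.34 (limma, adjusted p = 2.7e-05, standard error 0.16). Creb3l3, which responds to fasting, was at 0.255 and 0.118 and 132 and 116. Nkx2-1, the homeobox factor of lung epithelium, on chromosome 12 from 56531958 to 56536908 (GRCm38), was at 30.5 and 32.3 in lung and 0.0711 and 0.0551 in liver, a difference of 4.93. Foxf1, of lung mesenchyme and endothelium, was at 45.8 and 58.1 and 0.418 and 0.584, and Tbx2 at 25.8 and 32.3 and 0.947 and 0.821. The 8 factors listed for both organs were divided, with Foxa2 at 9.55 and 10.1 in lung and 12.4 and 10.9 in liver and Nfib at 6.4 and 6.37 and 6.69 and 7.41, neither called, Rxra higher in liver, at 48.5 and 43.5 against 5.42 and 5.13, and Cebpd in lung, at 14.5 and 15.8 against 2.05 and 1.88. The lung factor called toward liver was Hoxa5, at 58.4 and 14.0 in lung 1 and lung 2, below 113 and 147 in liver (adjusted p = 0.0416, limma), and its call was lost without lung 2 (difference -1.09, adjusted p = 0.0762), without liver 1 (difference -2.35, adjusted p = 0.14) or liver 2 (difference -1.96, adjusted p = 0.184, limma), in each other scaling tried, with a pseudocount of 0.1, without a filter and with all 8 libraries. Hoxa10 was split in the same direction, at 10.7 in lung 1 and 0 in lung 2, against 31.5 and 33.4 in liver.

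Of 36 developmental signals and receptors, 24 were higher in lung, 3 in liver and 9 were not called, and with the deposited FPKM 33 and 1. Bmp6 was at 14.4 and 17.7 in lung and 1.66 and 1.53 in liver, and Pdgfb, the signal that recruits pericytes, at 18 and 20.8 and 0.900 and 0.430. The largest difference was that of Acvrl1, a receptor of endothelial cells for Bmp9, at 59.9 and 71.9 in lung and 1.18 and 0.918 in liver, while its ligand Bmp9, listed as Gdf2, was higher in liver, at 7.30 and 5.35 against 0.178 and 0.178. Vegfa was present in both, at 105 and 109 in lung and 57.8 and 56.8 in liver, and its difference of 0.89 stayed under the size threshold. Of 30 genes of the actin cytoskeleton and membrane repair, 24 were higher in lung and 2 in liver, and with the deposited FPKM 28 and 0 (limma). Tmsb4x, which binds free actin, was at 860.5 and 850.2 in lung and 67.8 and 69.8 in liver, S100a11 at 215 and 198 and 5.54 and 5.52, and Vim, vimentin, at 138 and 126 and 6.69 and 10.1. The keratins Krt8 and Krt18, which hepatocytes carry, were the 2 on the liver side, both lost as calls with the deposited FPKM, where Krt8 was at a difference of 0.11, and Krt8 also without lung 2 (difference -1.22, adjusted p = 0.0711, limma), with Krt18 at 118 and 103 in liver and 26.7 and 25.4 in lung, whereas Krt7 and Krt19 were higher in lung. Genes of bile ducts and stellate cells overlap with these lists, and of 12 tested 4 were higher in lung, among them Krt7, Krt19 and Epcam, and 2 in liver, Colec11 and Rgs5, where 22.0% and 19.0% of all genes were. The call of Rgs5 was lost with the deposited FPKM (difference -0.71) and in both scalings to the same sum, and with the deposited FPKM 8 of the 12 were higher in lung and 1 in liver.

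Many functions were present in both organs through different members of a gene family. In 25 sets of enzymes, channels and junction proteins, the form known from liver was higher there in 33 of 35 genes, not called in 1 and higher in lung in 1, with a median log2 difference of -5.60. The other forms, 50 tested, were higher in lung in 28, in liver in 10 and not called in 12, with a median of 1.16. With the FPKM as deposited these counts became 28 of 35 toward liver and 37 of 50 toward lung. In glucose handling, the hexokinase Hk1 was at 3.55 and 3.86 in lung and 0.876 and 0.477 in liver. Pklr, the pyruvate kinase of liver, was at 0.274 and 0.137 and 23.0 and 22.1, and Pkm at 33.5 and 33.8 and 5.45 and 4.92. Of the glycogen synthases, Gys2 was at 0.133 and 0.0501 in lung and 74.0 and 47.1 in liver, and Gys1 at 3.58 and 3.23 and 0.464 and 0.752.

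Nitrogen and acid-base enzymes were divided alike. Gls2, the liver glutaminase, was at 0.204 and 0.217 in lung and 198 and 170.4 in liver. Among carbonic anhydrases Car3 was at 1806 and 1809.8 in liver and 19.4 and 8.26 in lung, and Car4 stood on the lung side as given above. The 2 lactate dehydrogenase subunits were opposite, with Ldha at 49.2 and 44.6 in lung and 282 and 287 in liver (not called with the deposited FPKM, difference -0.98) and Ldhb at 51.7 and 53.6 and 3.73 and 4.09. Of the aquaporins, Aqp8 and Aqp9 were at 85.0 and 73.2 and 78.2 and 81.3 in liver, and Aqp5 and Aqp1 higher in lung, with Aqp1 at 164 and 184 in lung and 71.4 and 51.0 in liver, a call lost without lung 1 (difference 1.61, adjusted p = 0.0516) or lung 2 (difference 1.46, adjusted p = 0.0596, limma). Junctions differed as well. Gjb1, the connexin of hepatocytes, was at 2.15 and 1.07 in lung and 674 and 589 in liver, and Gja4, of arteries, at 21.1 and 18.3 and 4.80 and 4.65. The exception among the forms listed for liver was Cdh1, E-cadherin, which was higher in lung, at 22.7 and 23.4 against 9.41 and 11.3, a difference that was 0.94, under the size threshold, without liver 1. In the angiotensin system the substrate and the enzyme lay apart. Agt, angiotensinogen, was at 0.50 and 0.540 in lung and 460.1 and 323 in liver, and Ace, the converting enzyme of capillaries, at 91.8 and 89.0 and 0.841 and 0.771, a difference of 5.66. Gstp1, listed as the form of other tissues, was higher in liver, and Pfkl, the liver phosphofructokinase, was not called, at 5.18 and 5.37 and 7.08 and 5.89.

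**Figure D5:**
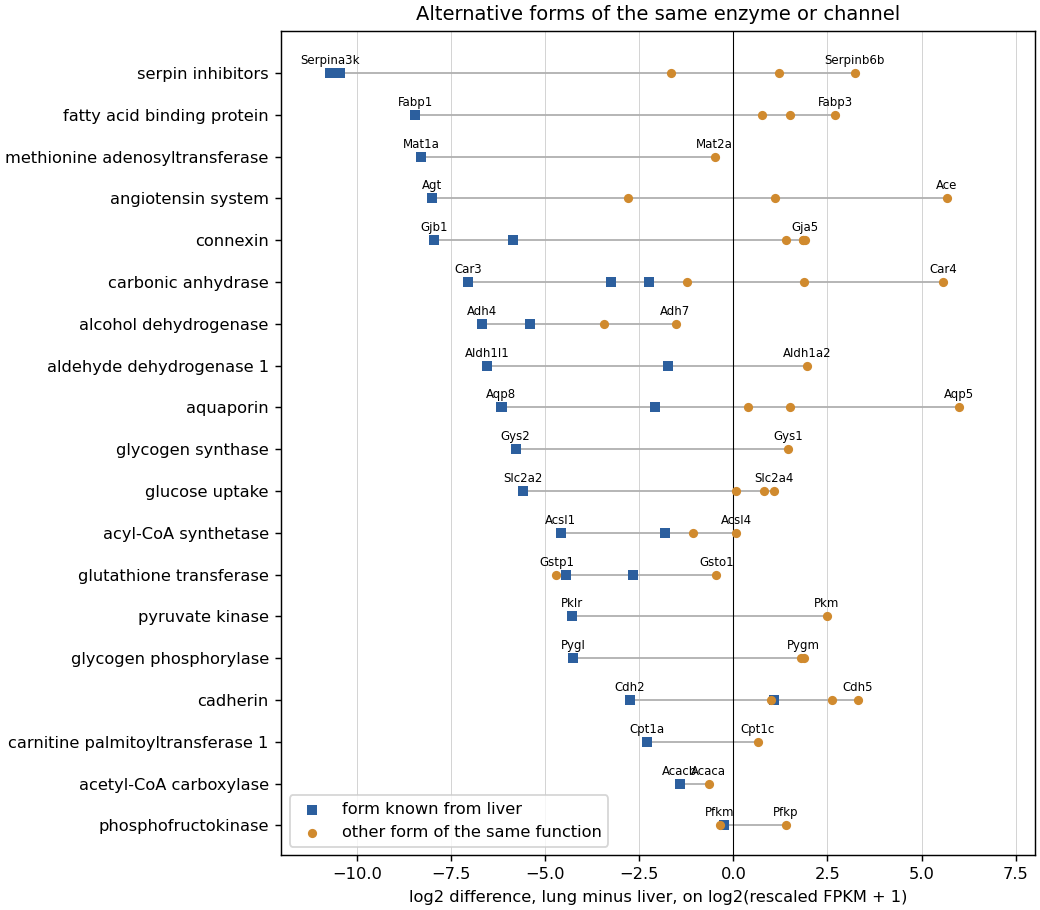
Log2 difference, lung minus liver, of the forms of the same enzyme, channel or inhibitor, with 1 row for each set shown, all of which have a form known from liver; blue squares are forms known from liver, orange circles other forms, and the names mark the lowest and highest of each row. The sets shown run from serpin inhibitors at the top, with Serpina3k at -10.71, to phosphofructokinase at the bottom, where Pfkl lies at -0.25.

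The counts of families that every cell uses moved with the scaling. Of 84 ribosomal protein genes, 0 were called higher in lung and 2 in liver, with a median log2 difference of 0.20, but 79 were called higher in lung with the deposited FPKM (median 1.76) and 67 after quantile normalization (limma). Nuclear genes of oxidative phosphorylation were called higher in liver in 64 of 77 cases and in lung in 5, with a median of -1.52, and 0.24 was the median after rescaling to the same sum, where 2 were called higher in liver and 9 in lung. Proteasome genes, 22 of 37 higher in liver at a median of -1.09, had a median of 0.48 with the deposited FPKM and 0 called toward liver. The mitochondrial transcripts themselves were higher in liver under the main scaling: mt-Co1 was at 8729.6 and 7368 in lung and 67270.0 and 61527 in liver, a difference of -3.00 (adjusted p = 0.00185, limma). The call was lost after quantile normalization, at a difference of -0.51, and at nearly the same difference without a filter on low values (difference -3.00, adjusted p = 0.111), without lung 1 (difference -3.10, adjusted p = 0.103) and without lung 2 (difference -2.85, adjusted p = 0.0915, limma in each). Chemokines had 21 of 28 higher in lung and 4 in liver, integrins 13 of 22 and 0, and claudins 6 of 12 and 4, where 22.0% and 19.0% of all genes were. The medians of these families stayed on the lung side under each scaling tried. With the deposited FPKM and both scalings to the same sum, the median of all genes was itself at 1.22, 1.40 and 1.15, so that staying there was no test.

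Of 250 solute carriers, 57 were higher in lung and 85 in liver (median -0.25), where 22.0% and 19.0% of all genes were, and with the deposited FPKM 116 and 55 (median 0.90). The uptake transporters Slc27a5, for fatty acids and bile acids, at 0.339 and 0.200 in lung and 677 and 516 in liver, and Slco1b2, for organic anions, at 0.312 and 0.144 and 415 and 406, were the farthest toward liver, and Slc34a2, given above, the farthest toward lung. The 5 most abundant genes within a log2 difference of 0.25 were Rplp1, Inmt, Ubb, Rps3a1 and Rpl17. Inmt, which methylates indole amines and is known from lung, was at 750.5 and 799.5 in lung and 859.5 and 615 in liver. Ubb, which encodes ubiquitin, was at 707 and 644 and 859.7 and 609. Of all genes tested, 2649 (17.7%) lay this close, and with the deposited FPKM all 5 were called higher in lung, with a difference of 1.51 for Ubb.

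The genes that separate lung from liver lay in different places relative to kidney and small intestine. Of the 3299 genes called higher in lung, 50.4% had both kidney and small intestine nearer to liver, and 12.3% had both nearer to lung. For the 2842 genes called higher in liver, 36.3% had both nearer to lung and 28.1% both nearer to liver. Kidney was the nearer to liver in 53.6% of the latter. These shares are descriptions, since the same 8 libraries give them, and they set kidney and small intestine by their mean after the same scaling.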

How the data were processed

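Polyadenylated RNA of lung and liver was captured on beads, copied into double-stranded cDNA and tagmented with Tn5. The authors aligned reads with STAR 2.5.3a (version as in the submitters' processing notes) and deposited FPKM computed with DESeq2, of which the 4 columns of lung and liver were tested. The read counter, its handling of strand and of reads with several positions are not given in the sources used here. Reads per gene were recovered from the steps of the deposited FPKM and exon lengths of GENCODE M21 (GRCm38), to which 99.3% of genes matched, with 92.0% to 92.8% of values above 0 whole within 0.02 reads in these 4 libraries. Detection was set at 3 reads, an FPKM of 0.241 to 0.327 for a transcript of 1 kb, and covers counting error only.

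FPKM were rescaled by the median of ratios over genes above 0 in all 4 libraries (factors 0.5401 and 0.6182 for liver, 1.7333 and 1.8132 for lung), transformed as log2(FPKM + 1) and tested by limma 3.58.1 (R 4.3.3) with a trend, for genes at FPKM 1 or more in at least 2 libraries. The steps were tested on simulated data. Tables used Python 3.11.15, numpy 2.4.6, pandas 2.3.3 and scipy 1.17.1. Text genes were, per organ, the 12 largest differences among called genes without overlap and with a mean of at least 10, the 10 highest genes of each organ, the 5 highest within 0.25, and members of 27 lists, gene families and 25 isoform sets. The members and lists were chosen with earlier results of these data known, and summed families, the TATA and ETS motifs, the inverse Simpson number without mitochondrial genes and the count of genes at a rescaled FPKM of 1 after values were seen. Alternatives were other scalings, pseudocounts, filters, fits with all 8 libraries or on recovered reads, and leaving out each library. Some genes that entered the counts are not reported here by name.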

Additional observations from a re-analysis of the deposited data

How the results depend on the processing

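The scaling decided most. With the FPKM as deposited, the same summed FPKM and the same summed FPKM without mitochondrial genes and pseudogenes, 10194, 11153 and 9705 genes were called in place of 6141, of which 9017, 10098 and 8451 were higher in lung and 1177, 1055 and 1254 higher in liver. The cause was not tested. Leaving out 1 library gave 5040 to 6524 calls, 2760 to 3534 toward lung and 2280 to 3011 toward liver. A pseudocount of 0.1 gave 4527 toward lung and 3178 toward liver, and limma-voom on recovered reads 4566 and 3284. By the study's methods the 4 tissues were taken from each mouse, but no source used here says that a replicate number marks a mouse, and the differences between number 1 and number 2 correlated at 0.0273 between lung and liver. With a replicate block, 3317 and 2877 genes were called, 6138 of the 6141 calls among them.

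The lung minus liver difference in genes detected, 5198.5, was 1478 at an FPKM of 1 after rescaling, an alternative chosen after seeing the data, 4180.5 at an FPKM of 5 and 4819.9 after rarefaction, and 4975 to 5422 without 1 library. The difference in the effective number, 511, was 742.94 without mitochondrial genes, 12.732 for the inverse Simpson number, 1883.3 without the 10 highest genes, 502 to 520 without 1 library, and -19.704 for the inverse Simpson number without mitochondrial genes, an alternative chosen after seeing the data. The list of liver sinusoidal endothelium turned by its median in the 3 scalings named first, with 4 genes called higher in liver in each, and that of organ transcription factors in the same 3 (14 genes) and in quantile normalization (16 genes).

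Of the 197 genes that the text or the rule for its genes named, 16 turned direction under some alternative and 33 lost their call, with 2729 values on the same side, 115 that lost and 54 that gained a call. Log2 differences in the 3 scalings and quantile normalization, in this order, were those of B2m (0.33, 0.60, 0.21 and 1.47), C1qa (1.05, 1.30, 0.93 and 0.39), Csf1r (1.47, 1.71, 1.35 and 0.44), Cyp2f2 (0.90, 1.16, 0.78 and 1.65), Dcn (1.51, 1.77, 1.39 and 1.02), Foxa2 (1.26, 1.5, 1.14 and 0.14), Nfib (1.28, 1.51, 1.17 and 0.033), Pros1 (1.27, 1.52, 1.16 and 0.25) and Ubb (1.51, 1.78, 1.39 and 2.64). In the 3 scalings the values were those of Il6ra (0.22, 0.42 and 0.12), Pfkl (1.13, 1.35 and 1.02), Por (0.48, 0.74 and 0.36) and Pparg (0.87, 1.05 and 0.78), and in the first 2 those of Krt8 (0.11 and 0.37). Without 1 library the direction turned for Csf1r (-0.13 to 0.067), Dcn (-0.18 to 0.095), Inmt (-0.17 to 0.29), Rplp1 (-0.011 to 0.16) and Ubb (-0.37 to 0.11), given as the range over the 4 fits. With 2 libraries an organ, no exact test on a single value can pass 0.05, and the size of the largest differences depends on low levels in the other organ, whose source was not tested.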

Other observations

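Some neighbouring genes were called in the same direction. Of runs of 6 or more adjacent tested genes, 16 were higher in lung and 20 higher in liver. Most of the runs toward lung held immunoglobulin segments, and no background for the number of runs was computed. The longest toward liver held 33 genes from Mup7 to Mup21 on chromosome 4 from 60066469 to 62150863 (GRCm38), and the longest toward lung 30 immunoglobulin kappa segments on chromosome 6 from 68834846 to 70144166. Runs of 11 genes toward liver covered the Cyp2d cluster on chromosome 15, the Cyp2c cluster on chromosome 19 and the Ugt2b and sulphotransferase genes on chromosome 5. Toward lung, 9 genes from Lypd2 to Ly6c2 on chromosome 15 from 74732247 to 75111970 and 8 from Gimap4 to Gimap3 on chromosome 6 from 48684549 to 48770851 formed runs. The Mup genes and the immunoglobulin segments are near-identical copies that can share reads, so that the members of those runs are not independent. The other runs named also hold members of gene families, and whether these share reads was not tested.

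Some genes split the 2 lung libraries. The neutrophil granule genes Ngp and Camp had a deposited FPKM of 2.01 and 31.4, and of 1.62 and 14.9, in lung 1 and lung 2. Several Hox genes went the other way. In rescaled FPKM, Hoxb8 was at 4.75 and 0 in lung 1 and lung 2 and 12.6 and 6.54 in the liver libraries, and Hoxc4 at 3.96 and 0.0173 in lung and 10.1 and 3.48 in liver. In the deposited FPKM lung 1 lay above both liver libraries in these genes, at 8.24 against 6.79 and 4.04 for Hoxb8 and 6.86 against 5.44 and 2.15 for Hoxc4. The cause was not tested.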
